A study of Mus musculus with 6 samples.

Results

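Cytosolic ribosomal protein genes encode the proteins that, with the ribosomal RNAs, build the large (Rpl) and small (Rps) subunits of the ribosome. They were chosen by symbol alone: Rpl or Rps followed by a number and up to 2 letters, together with Rplp0, Rplp1, Rplp2 and Rpsa, leaving out the Rps6k kinases and pseudogenes whose symbols end in -ps. The rule gave 87 symbols, of which 77 had a row among the 21310 genes of the mRNA table, 47 of the large and 30 of the small subunit. Rpl13, Rpl24, Rpl32l, Rpl32p, Rpl35, Rpl41, Rpl6l, Rps13, Rps27 and Rps4l had no matching identifier and were not analysed here. Of the 77, 63 reached a floor of 5 CPM (read counts scaled to a common library size) in at least 1 library. The 14 under it were Rpl3l, Rpl10, Rpl11, Rpl17, Rpl23a, Rpl27, Rpl31, Rpl36a, Rpl39, Rps4x, Rps6, Rps10, Rps23 and Rps28.

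The mRNA came from pachytene spermatocytes, germ cells whose paired chromosomes exchange DNA in meiosis, isolated from mouse testes. There was 1 library from wild type (WT) and 1 from Alkbh1-/- mice, a null line that lacks exon 6 of Alkbh1 and whose heterozygotes were backcrossed onto C57/BL6. RNA longer than 200 nt was selected with oligo(dT), starting from 1 µg in WT and 1.6 µg in Alkbh1-/-, amplified for 15 PCR cycles and read as 75 bp paired ends. Neither the ages and number of the mice nor the way the cells were purified is stated in the sources used here. The small RNA libraries of the series, which include a Tzfp gene trap, do not measure these mRNAs and were not used here.

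With 1 library per genotype, every difference below is one between 2 libraries. Genotype, preparation and RNA input cannot be told apart, and no p-value was computed. The intervals are exact 95% intervals that cover counting error only, since PCR copies are not independent molecules. The libraries held 8222671 counts (WT) and 10229260 (Alkbh1-/-). Alkbh1 itself had 171 and 209 counts, a ratio of 0.962 (0.782 to 1.18), but reads over all its exons leave the loss of exon 6 untested. Zbtb32, the gene of the Tzfp protein, had 2672 and 4374 counts, a ratio of 1.29 (1.23 to 1.35). All 8 late pachytene markers had counts in both libraries, summing to 12194 CPM in WT and 11556 CPM in Alkbh1-/-. Of these, 5 were lower and 3 higher in Alkbh1-/-. Meiotic prophase markers were higher for 6 of the 8 in the table (10 listed), with sums of 1078 and 1098 CPM. Markers of Sertoli cells, the somatic cells that nurse germ cells, were lower in Alkbh1-/- for 11 of the 11 in the table (13 listed), with sums of 2607 and 1287 CPM and no marker at 0. Leydig cell markers were higher for 6 of 6 (69.8 and 140 CPM) and peritubular myoid markers for 4 of 4 (13.8 and 24.8 CPM). Spermatogonia markers were higher for 5 of 7 (182 and 227 CPM), and spermatid markers were higher for 7 of 10 (1180 and 1456 CPM). Macrophage and blood markers summed to 2.83 and 2.61 CPM, with Hba-a1 at 0 in WT. In bulk RNA, fewer cells of a type and less RNA per cell cannot be told apart. The part of these other cells in the differences of ribosomal protein genes, which somatic cells also express, was not tested.

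Each ribosome carries its proteins in fixed proportions, and their mRNAs share a start with a tract of pyrimidines (C or T), the 5′ terminal oligopyrimidine or TOP motif, through which mTOR signalling controls their translation. In pachytene spermatocytes the X chromosome is silenced, and several X-linked housekeeping genes have autosomal copies that work in its place. Rpl10l, copied from X-linked Rpl10, and Rpl39l, related to X-linked Rpl39, are known examples. Ribosomal protein genes also have very many processed pseudogenes, copies of the mRNA pasted back into the genome, with nearly the same sequence.

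The counts of the 77 genes spanned a wide range in both libraries, from 2 to 3528 in WT (median 162) and from 4 to 4828 in Alkbh1-/- (median 204). Together they took 0.396% of all counts in WT (95% Wilson interval 0.3916 to 0.4002) and 0.381% in Alkbh1-/- (0.377 to 0.385). Rplp0, Rpl8, Rpl4, Rpl39l and Rpl10l held 39.1% of those counts in WT and 39.7% in Alkbh1-/-. At the other end, 15 genes had fewer than 50 counts in WT and 18 in Alkbh1-/-. Rps6, the small-subunit protein phosphorylated by S6 kinases, had 17 and 22 counts, and Rpl11, which with Rpl5 binds the 5S ribosomal RNA, had 28 and 44. These counts are not per length, so they do not order the genes by level. Between the libraries the order was nearly the same: log2(CPM + 1) correlated across the 77 genes with a Pearson r of 0.990 and a Spearman rho of 0.989, genes of 1 pair of libraries not being independent replicates.

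**Figure D1:**
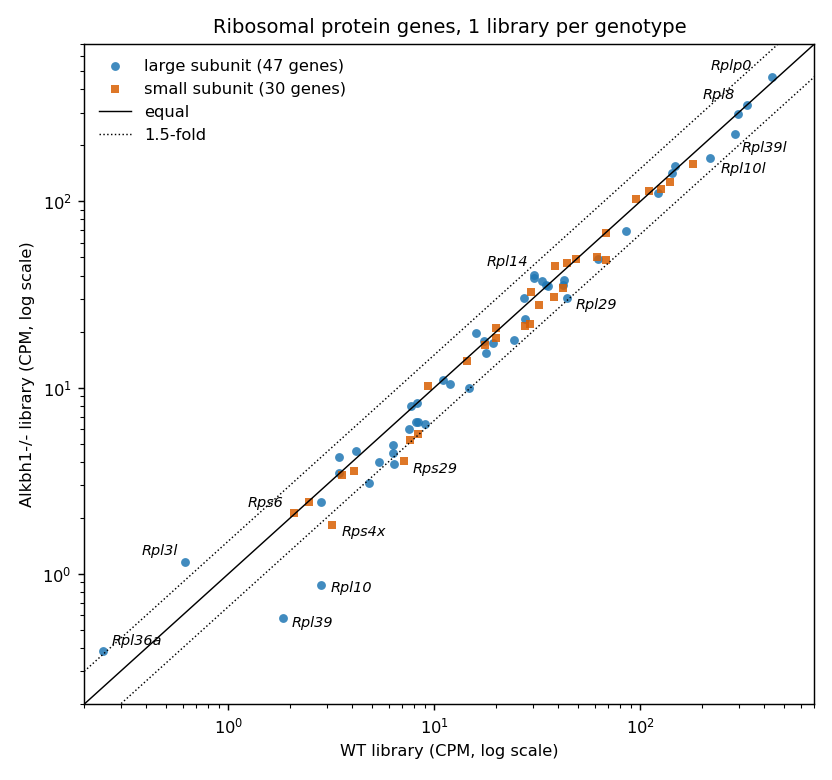
Level of each of the 77 ribosomal protein genes in the WT library (x axis, CPM, log scale) and the Alkbh1-/- library (y axis, CPM, log scale), with large-subunit genes as circles, small-subunit genes as squares, a solid line for equal levels and dotted lines at 1.5-fold. Most genes lie between the dotted lines, while X-linked Rpl10 (2.83 and 0.871 CPM) and Rpl39 (1.84 and 0.580 CPM) lie below them at low counts.

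The sources used here do not state how reads that fit several places were treated, and named pseudogenes took many reads. The table holds 93 genes with -ps symbols of this family, with 6623 counts in WT and 8009 in Alkbh1-/-. Of the 38 ribosomal protein genes with at least 1 of these copies in the table, 15 had fewer counts than their copies in WT and 15 in Alkbh1-/-. Rps6 had 17 and 22 counts, while Rps6-ps4 had 313 and 425. Rpl31 had 28 and 36 counts against 404 and 497 on Rpl31-ps8. Rpl36a had 2 and 4 against 282 and 316 on Rpl36a-ps3. The median WT count was 131 for genes with such a copy and 261 for the 39 without. Copies under symbols other than -ps were not looked for, so these 39 may have copies too. The counts of ribosomal protein genes with near-identical copies are therefore uncertain as levels, and transcripts of a copy and of its parent cannot be told apart here.

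The copies had ratios near those of their parents in many families. For Rps15a, a small-subunit protein, the ratio of Alkbh1-/- over WT was 0.812 (0.698 to 0.945) on the parent and 0.783 (0.686 to 0.894) on its 5 copies. For Rpl39 it was 0.315 (0.100 to 0.858) on the parent, at 15 and 6 counts, and 0.416 (0.253 to 0.669) on Rpl39-ps, at 53 and 28. On the other side of 1, Rpsa, the laminin receptor of the small subunit, had 1.10 (0.933 to 1.31), and its 7 copies had 1.25 (1.05 to 1.49). Rpl30 differed: the parent had 1.02 (0.869 to 1.19) and its 6 copies 0.607 (0.457 to 0.805). Over the 21 families with at least 50 WT counts on copies and 15 on the parent, both ratios were below 1 in 9, both above in 7 and on different sides in 5. Across these families, which share both libraries and may share reads, the log2 ratios correlated with a Pearson r of 0.797 and a Spearman rho of 0.709, and without Rpl39 with 0.526 and 0.663.

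**Figure D2:**
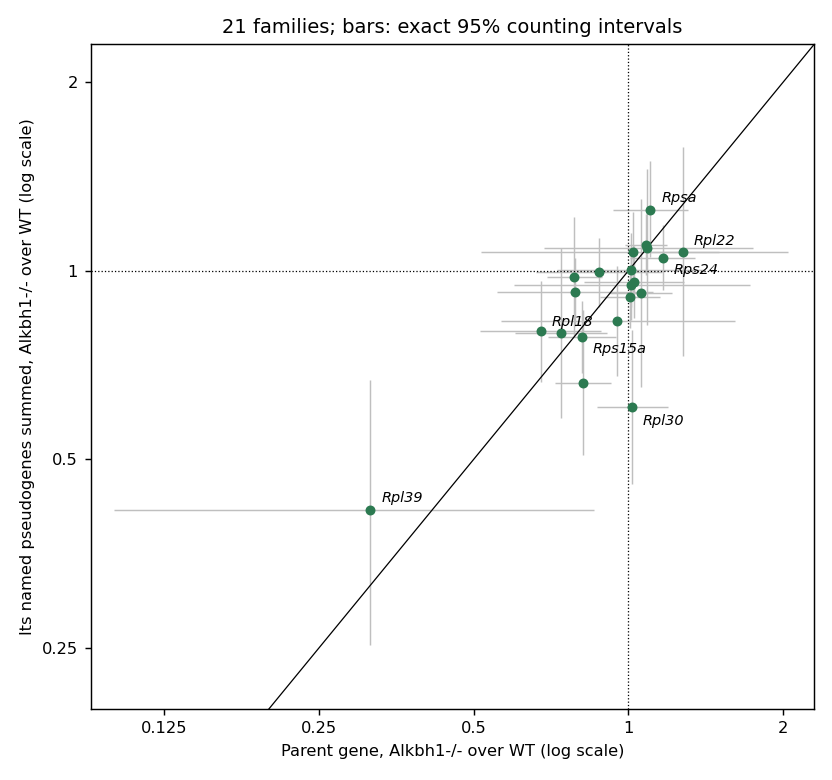
Ratio of Alkbh1-/- over WT for each of 21 parent genes (x axis, log scale) and for the sum of its named pseudogenes (y axis, log scale), with bars for exact 95% counting intervals, a solid line for equal ratios and dotted lines at 1. Rpl39 stands apart at 0.315 and 0.416, and Rpl30 lies below the line at 1.02 and 0.607.

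The comparison of Alkbh1-/- with WT asked which transcripts differ in spermatocytes without Alkbh1, a member of the AlkB dioxygenase family. Ribosomal protein genes were slightly lower in the Alkbh1-/- library. The median of log2((Alkbh1-/- CPM + 1)/(WT CPM + 1)) over the 63 genes above the floor was -0.14 (interquartile range -0.31 to 0.03), against -0.02 (-0.23 to 0.21) over all 12189 genes above it. This scale understates the change of genes with low CPM. By sign, 43 of 63 were below 0 (68.3%, against 52.1% of all genes tested) and 20 above (against 47.9%). At 1.2-fold, 24 were lower (38.1%, against 21.8% of all genes) and 3 higher (4.76%, against 21.5%). At 1.5-fold, 2 were lower (3.17%, against 8.79%) and 0 higher (against 8.06%), and at 2-fold 0 were lower or higher (against 2.71% and 1.8%). The floor bears on these counts, since Rps29, Rpl37, Rpl12, Rpl38 and Rpl37a reached it only through WT and so had to be lower in Alkbh1-/-. Over the 58 genes above the floor in both libraries, the median was -0.11, 38 were below 0 (65.5%, against 52.5% of all genes above it in both), 19 were at least 1.2-fold lower (32.8%, against 20.2%), and 0 were at least 1.5-fold lower (against 7.4%). The share past 1.5-fold was thus no larger than the background, and 1.2-fold is a small difference between 2 libraries.

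Depth resolved part of these differences. The counting interval of the ratio lay wholly below 1 for 19 of 63 genes (30.2%, against 26.8% of all genes tested) and wholly above 1 for 4 (6.35%, against 23.7%). The share below was near the background, and the share above was under it. Those below 1 included Rpl7, Rpl10l, Rpl13a, Rpl18, Rpl26, Rpl29, Rpl34, Rpl37 and Rpl39l of the large subunit and Rps14, Rps15a, Rps20, Rps21, Rps27a, Rps27rt and Rps29 of the small subunit. The 4 above 1 were Rplp0, Rpl14, Rpl22 and Rps24. As a sum, the 77 genes had 32555 counts in WT and 38960 in Alkbh1-/-, a ratio of 0.942 (0.928 to 0.956). With the same scaling, the ratio of sums over all genes was 0.979 rather than 1. The medians also differed by level. The 21 genes with the lowest mean level, under 17.8 CPM, had a median of -0.28, the next 21 had -0.14 and the 21 above 40.8 CPM had -0.01. All genes tested in the same 3 ranges had medians of 0.01, -0.02 and -0.02. The 5 genes that reached the floor only through WT were all among the lowest 21, and the other 16 had a median of -0.19, near that of the next group.

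**Figure D3:**
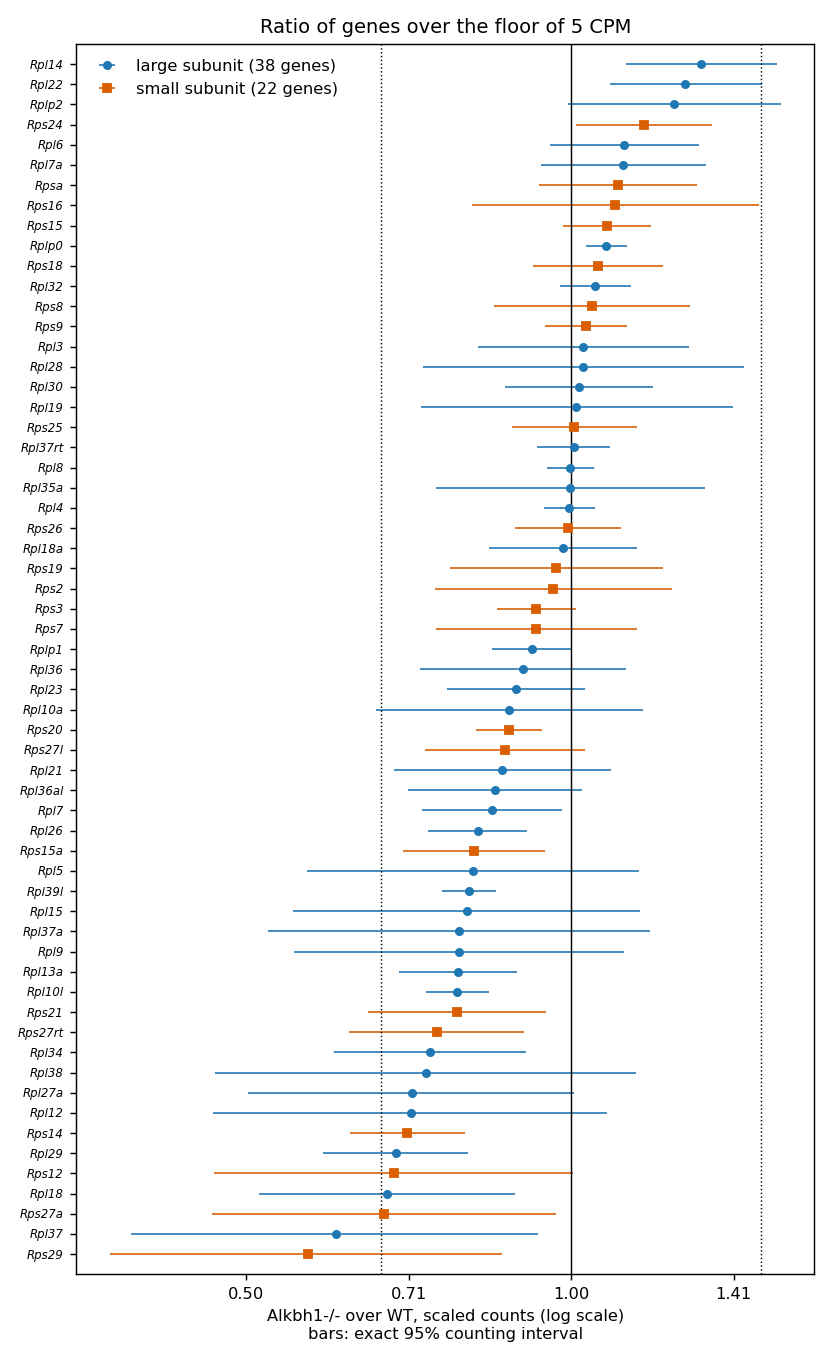
Ratio of Alkbh1-/- over WT (x axis, scaled counts, log scale) for genes above the floor, sorted by ratio and without 3 that are not reported here, with circles for the large and squares for the small subunit, bars for exact 95% counting intervals, a solid line at 1 and dotted lines at 1.5-fold. Rpl14, Rpl22, Rps24 and Rplp0 have intervals above 1, and the intervals of Rps29, Rpl37, Rpl18, Rpl29 and Rps14 lie below 1.

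Large-subunit genes had a median of -0.17 (38 above the floor, 26 or 68.4% below 0). Small-subunit genes had -0.11 (25 above the floor, 17 or 68.0% below 0). Of all genes tested, 52.1% were below 0. These medians and counts include Rpl37, Rpl12, Rpl38 and Rpl37a of the large and Rps29 of the small subunit. Those genes reached the floor only through WT and so had to be lower, and subunit medians without them were not computed. Rpl4 and Rpl8, core proteins that reach toward the exit tunnel and the catalytic centre, were level between the libraries. Rpl4 had 2419 counts in WT and 3061 in Alkbh1-/- (297 and 296 CPM), and Rpl8 had 2689 and 3411 (331 and 330 CPM). The ratios were 0.996 (0.944 to 1.05) and 0.998 (0.949 to 1.05). At these depths the intervals take in no difference of 1.2-fold between these libraries. Rpl32 had 1202 and 1607 counts, with a ratio of 1.05 (0.976 to 1.13).

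The stalk, which recruits the translation factors, is built from Rplp0 with the acidic proteins Rplp1 and Rplp2. Rplp0 had 3528 counts in WT and 4828 in Alkbh1-/- (434 and 467 CPM), a ratio of 1.08 (1.03 to 1.12). Rplp2 had 129 and 204 counts (15.9 and 19.7 CPM), a ratio of 1.24 (0.993 to 1.56), and Rplp1 had 987 and 1153 counts, a ratio of 0.919 (0.844 to 1.00). Rplp0 and Rplp2 thus lay above 1 and Rplp1 below it, with only the interval of Rplp0 clear of 1.

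Above the floor, the highest genes by log2 difference were Rpl14 (0.39), Rpl22 (0.34), Rplp2 (0.30), Rps24 (0.22), Rpl6 (0.16) and Rpl7a (0.15). Rpl14 had 247 counts in WT and 414 in Alkbh1-/-, a ratio of 1.32 (1.12 to 1.55). Rps24, one of the genes mutated in Diamond-Blackfan anaemia, had 315 and 467 counts (38.7 and 45.2 CPM), a ratio of 1.17 (1.01 to 1.35). These sizes are close to 1 beside those of the lowest genes.

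The lowest above the floor were Rps29 (-0.68), Rpl37 (-0.60), Rpl29 (-0.53), Rpl18 (-0.52), Rps27a (-0.50) and Rps14 (-0.50). Rps29 had 58 counts in WT and 42 in Alkbh1-/- (7.13 and 4.06 CPM), a ratio of 0.570 (0.374 to 0.862). Rpl37 had 52 and 40 counts, a ratio of 0.605 (0.391 to 0.932). These were the 2 genes past 1.5-fold, and both reached the floor only through WT. With no floor 4 genes were past it, and with the floor in both libraries 0 were. Among genes with more reads, Rpl29, a heparin-binding protein of the large subunit, had 358 and 313 counts (44.0 and 30.3 CPM), a ratio of 0.688 (0.589 to 0.803). Rps14, whose loss underlies the anaemia of the human 5q- syndrome, had 557 and 499 counts (68.5 and 48.3 CPM), a ratio of 0.705 (0.623 to 0.797). Rps27a, made as a fusion of ubiquitin with a small-subunit protein, had 68 and 58 counts, a ratio of 0.671 (0.465 to 0.967). Rpl18 had 120 and 103 counts, a ratio of 0.675 (0.514 to 0.886). The lowest genes thus came from both subunits.

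Among other abundant small-subunit genes, Rps20 had 1471 counts in WT and 1636 in Alkbh1-/-, a ratio of 0.875 (0.815 to 0.940). Rps3, at the mRNA entry, had 1020 and 1203 counts, a ratio of 0.928 (0.853 to 1.01). Both were under 1.2-fold lower in Alkbh1-/-, and the interval of Rps3 took in 1.

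X-linked Rpl10 and Rpl39 had the lowest ratios of the 77 genes, at few reads. Rpl10, whose protein joins the large subunit late in its maturation, had 23 counts in WT and 9 in Alkbh1-/-, a ratio of 0.308 (0.125 to 0.691). Rpl39, a small protein of the exit tunnel, had 15 and 6 counts. Rps4x had 26 and 19 counts, a ratio of 0.575 (0.301 to 1.08), and Rpl36a had 2 and 4 counts, with a ratio of 1.57 (0.226 to 17.4). The 4 genes together had 66 and 38 counts, a ratio of 0.453 (0.296 to 0.685), and none reached the floor. Sertoli cells do not silence the X chromosome, and the sum of their markers was 2607 CPM in WT and 1287 CPM in Alkbh1-/-. Of all X-linked genes in the table, 360 were above the floor, with a median of -0.35. At 1.5-fold, 36.1% of them were lower (against 8.79% of all genes) and 8.33% higher (against 8.06%). The 360 include genes that reached the floor only through WT and so had to be lower. The part of the Sertoli cells in the values of X-linked genes was not tested.

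By the counts as deposited, the autosomal copies of these X-linked genes carried nearly all reads of their pairs in both libraries. Rpl10l had 1771 counts in WT and 1765 in Alkbh1-/- (218 and 171 CPM), or 98.7% (98.1 to 99.1, Wilson) and 99.5% (99.0 to 99.7) of the reads of Rpl10 and Rpl10l. Rpl39l had 2334 and 2385 counts (287 and 231 CPM), or 99.4% (98.9 to 99.6) and 99.7% (99.5 to 99.9) of its pair. Both copies were lower in Alkbh1-/- by the scaled counts, with ratios of 0.784 (0.734 to 0.838) for Rpl10l and 0.804 (0.759 to 0.852) for Rpl39l. Rpl36al had 225 and 243 counts, a ratio of 0.850 (0.706 to 1.02), and held 99.1% and 98.4% of its pair as deposited. With the named pseudogenes of Rpl36a added to the parent, its share was 43.9% and 42.7%. Spermatid markers were higher in Alkbh1-/- for 7 of 10 and lower for 3 (sums of 1180 and 1456 CPM). Late pachytene markers were lower for 5 of 8 and higher for 3 (12194 and 11556 CPM). The part of cell composition in the ratios of these copies was not tested.

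Rpl37rt, annotated as a retrogene of Rpl37, had 1154 and 1474 counts, a ratio of 1.01 (0.930 to 1.09), while Rpl37 was among the lowest genes. Its share of the pair was 95.7% (94.4 to 96.7) in WT and 97.4% (96.4 to 98.1) in Alkbh1-/-. How reads that fit both Rpl37 and Rpl37rt were treated is not stated, and their similarity was not measured. The split of reads between them is therefore uncertain beyond these intervals. Rpl3l, known from muscle, had 5 and 12 counts beside 142 and 185 for Rpl3, a ratio of 1.89 (0.619 to 6.84) at counts too few to place it. Rps27l and Rps27rt, whose parent Rps27 was not analysed here, had 261 and 288 counts (ratio 0.868, interval 0.732 to 1.03) and 237 and 226 (ratio 0.750, interval 0.623 to 0.904).

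Rpl22 and its paralog Rpl22l1, which the symbol rule leaves out, lay on opposite sides of 1. Rpl22, a protein the ribosome can do without and which binds other RNAs, had 248 counts in WT and 402 in Alkbh1-/- (30.5 and 38.9 CPM), a ratio of 1.28 (1.09 to 1.5). Rpl22l1 had 152 and 117 counts (18.7 and 11.3 CPM), a ratio of 0.606 (0.472 to 0.776). It held 38.0% (33.4 to 42.8, Wilson) of the reads of the pair in WT and 22.5% (19.2 to 26.3) in Alkbh1-/-. This share does not depend on the scaling between libraries. Its intervals, which cover counting error only, did not overlap. Separation by counting error was common here, with ratio intervals below 1 for 26.8% and above 1 for 23.7% of all genes tested. The part of cell composition in the shift of this share was not tested.

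**Figure D4:**
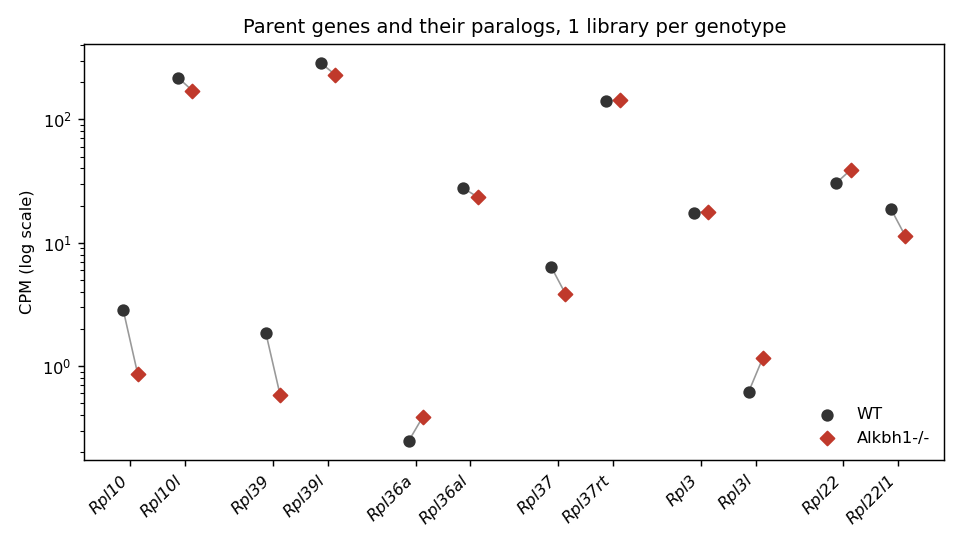
Levels (y axis, CPM, log scale) of 6 parent genes and their paralogs (x axis) in the WT library (circles) and the Alkbh1-/- library (diamonds), 1 library each. Rpl10l (218 and 171 CPM) and Rpl39l (287 and 231 CPM) lie far above Rpl10 and Rpl39, and the lines of Rpl22 and Rpl22l1 slope in opposite directions.

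The sequences at the annotated starts show the pyrimidine tract, where a gene has one, and the starts of parents and copies side by side. Of the 87 symbols, 64 had an entry in the RefSeq promoter table (GRCm38.p6), with 76 starts among its 32851. The windows below run from 40 bases before to 20 after the start, 5′ to 3′, with runs of 8 or more C or T in capitals. The first 4 show the tract where it stands close to the start, chosen for that after the letters were seen, and the next 6 are parents beside their copies.
Rplp2, chr7:141447611-141447670, plus strand: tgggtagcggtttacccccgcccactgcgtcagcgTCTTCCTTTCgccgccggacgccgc
Rpl14, chr9:120571477-120571536, plus strand: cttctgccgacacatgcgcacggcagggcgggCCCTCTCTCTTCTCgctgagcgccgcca
Rps9, chr7:3704001-3704060, plus strand: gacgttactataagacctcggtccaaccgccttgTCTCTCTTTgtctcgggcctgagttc
Rps18, chr17:33955646-33955705, minus strand: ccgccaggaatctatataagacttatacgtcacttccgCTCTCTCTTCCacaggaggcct
Rpl10, chrX:74270776-74270835, plus strand: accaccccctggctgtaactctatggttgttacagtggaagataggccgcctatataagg
Rpl10l, chr12:66284382-66284441, minus strand: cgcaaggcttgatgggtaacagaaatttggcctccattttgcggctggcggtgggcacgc
Rpl39, chrX:37085203-37085262, minus strand: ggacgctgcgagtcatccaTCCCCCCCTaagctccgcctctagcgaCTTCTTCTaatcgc
Rpl39l, chr16:10170188-10170247, plus strand: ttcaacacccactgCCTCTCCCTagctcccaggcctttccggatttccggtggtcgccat
Rps27, chr3:90213629-90213688, minus strand: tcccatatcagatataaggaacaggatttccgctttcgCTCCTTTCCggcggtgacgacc
Rps27rt, chr9:114982720-114982779, minus strand: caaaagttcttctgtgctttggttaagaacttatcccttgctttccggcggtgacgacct

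Rps27 and Rps27rt share an unbroken run of 38 bases that begins at base 2 after the start of Rps27 and at base 1 of Rps27rt, as the letters after each start show. The reads were 75 bp long, and similarity beyond this run was not measured. Over their whole windows of 300 bases, Rpl10 and Rpl10l shared no run longer than 8 bases, nor did Rpl39 and Rpl39l, nor Rpl36a and Rpl36al. In the 60-base window, a C or T run of 8 or more stood at 51.3% of the starts of ribosomal protein genes and at 24.2% of all starts. The letters CTTTC, which such runs can contain, stood at 30.3% and 8.11%. Over the whole window and on both strands, CCGGAA, the core that ETS factors bind, stood at 46.1% against 14.9%, and TATAA at 23.7% against 24.9%. Annotated starts can lie some bases from the true ones, so a missing tract says only that the letters are not in this window.

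The start letters can be set beside the differences between the libraries. Genes above the floor with CTTTC at a start had a median log2 difference of -0.29 (18 genes) and those without it -0.05 (27 genes). For the C or T run the order was the other way, with -0.04 (27 genes) with it and -0.17 (18 genes) without. With CCGGAA the median was -0.14 (24 genes) and without it -0.01 (21 genes), and with TATAA it was 0.04 (11 genes) and -0.19 without (34 genes). These are descriptions of overlapping sets in 2 libraries. The sets were not matched for level, and the medians of ribosomal protein genes ran from -0.28 at the lowest level to -0.01 at the highest. They can also include genes that reached the floor only through WT and so had to be lower. A link of the letters to the differences was not tested.

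The medians of other lists of protein synthesis genes lay nearer to 0. These lists were not matched for level, and ribosomal protein genes above 40.8 CPM had a median of -0.01. Mitochondrial ribosomal proteins, which build the separate ribosome of that organelle, had a median of -0.04 (70 genes above the floor, 0 past 1.5-fold in either direction). Elongation and release factors had 0.07 (12 genes, 1 at least 1.5-fold lower and 0 higher), initiation factors -0.00 (38 genes, 1 and 0), ribosome biogenesis factors -0.04 (50 genes, 3 and 0), RNA polymerase I genes 0.02 (14 genes, 1 and 0) and mTOR and S6 kinase signalling genes -0.01 (22 genes, 2 and 2). These shares stand beside 8.79% lower and 8.06% higher over all genes. The other TOP mRNAs listed, 18 above the floor, had a median of -0.06 with 0 past 1.5-fold. By the ratio of summed CPM, which was 0.979 over all genes, the order differed. RNA polymerase I genes (0.902) and mTOR and S6 kinase signalling genes (0.929) were lower than ribosomal protein genes (0.942). The remaining lists were higher, from 0.962 for ribosome biogenesis to 0.994 for elongation and release factors.

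Several of these are made in step with ribosomal proteins. Eef1a1, which brings aminoacyl-tRNA to the ribosome, had 8877 counts in WT and 11799 in Alkbh1-/-, a ratio of 1.05 (1.02 to 1.08). Eef2, the translocation factor, had 14726 and 17905, a ratio of 0.957 (0.936 to 0.978). Pabpc1, the poly(A)-binding protein, had 17954 and 22032, a ratio of 0.966 (0.947 to 0.985), and Tpt1 had 544 and 639, a ratio of 0.924 (0.823 to 1.04). Of the ribosomal proteins whose names do not follow the rule, Rack1 had 1163 and 1411 counts, a ratio of 0.955 (0.883 to 1.03), and Fau had 49 and 64, a ratio of 1.03 (0.697 to 1.52). The paralog Rpl7l1 was not analysed here. These genes were within 1.2-fold, while 3 other listed TOP mRNAs, named after their values were seen, were not. Eef1d, a subunit of the exchange factor for Eef1a1, had 801 and 1517 counts, a ratio of 1.49 (1.37 to 1.63). Eif4b, an initiation factor, had 681 and 1052, a ratio of 1.22 (1.10 to 1.34), and Gas5, a noncoding TOP transcript, had 309 and 288, a ratio of 0.733 (0.622 to 0.864).

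**Figure D5:**
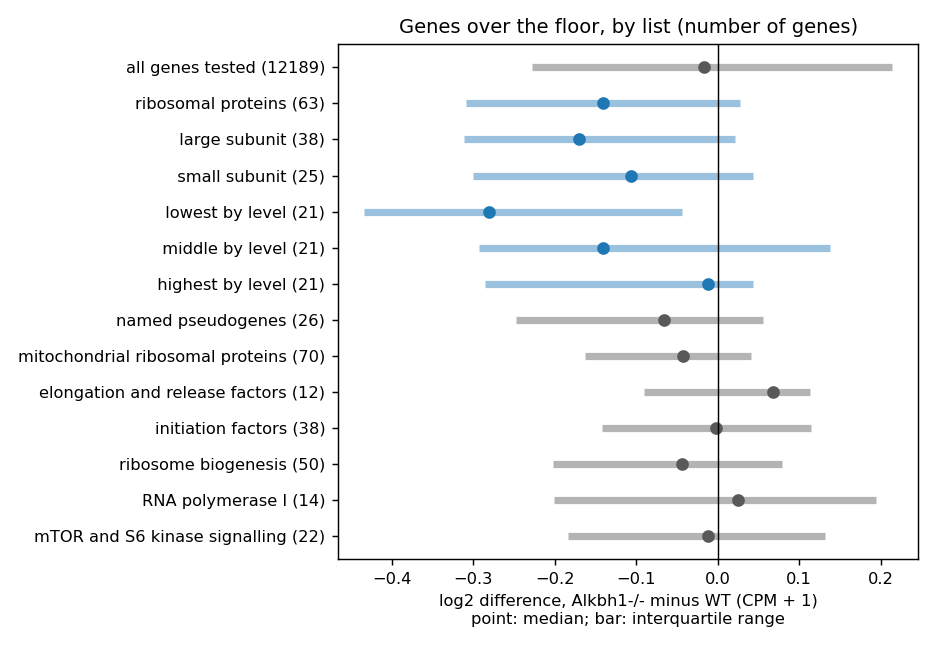
Median (point) and interquartile range (bar) of the log2 difference, Alkbh1-/- minus WT on CPM + 1 (x axis), for all genes tested, ribosomal protein genes and their groups, and related lists (y axis, with the number of genes). Ribosomal protein genes have a median of -0.14, from -0.28 in the lowest level group (-0.19 without the 5 genes that passed only through WT) to -0.01 in the highest, and all genes tested have -0.02.

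Above the floor, the lowest members of 3 of these lists were X-linked, while the X-linked ribosomal protein genes were all under it. Eif2s3x, a subunit of the factor that carries the initiator tRNA, had 56 counts in WT and 30 in Alkbh1-/- (log2 difference -1.01). Gspt2, a release factor copy, had 87 and 63 (-0.72), and Utp14a, a factor of small-subunit assembly, had 54 and 38 (-0.71). The next values cover the lists of elongation and release, initiation, ribosome biogenesis, RNA polymerase I and signalling together. Their 6 X-linked genes above the floor had a median of -0.64, with 5 below 0. The 130 others, which include Y-linked Eif2s3y, had -0.01. Rps6ka6, an S6 kinase relative on the X chromosome, was the exception at 53 and 122 counts (0.77). Eif2s3x and Utp14a reached the floor only through WT and so had to be lower in Alkbh1-/-. The median and count of the 6 genes include them, as does the statement on the lowest members. The others of the 6 were Gspt2 (-0.72), Eif1ax (-0.58), Rps6ka3 (-0.19) and Rps6ka6 (0.77). Without Eif2s3x the lowest initiation factor was X-linked Eif1ax, and without Utp14a the lowest biogenesis factor was autosomal Nol6 (-0.61). X-linked Dkc1 of the biogenesis list was under the floor, at 33 and 41 counts (-0.03). Of all X-linked genes above the floor, including those that reached it only through WT, 67.8% were below 0 (against 52.1% of all genes), with a median of -0.35. The grouping of the related lists by chromosome was made after the values were seen.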

How the data were processed

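The authors deposited whole-number read counts per Ensembl gene for 1 WT and 1 Alkbh1-/- mRNA library. CASAVA 1.3, Novoalign, TopHat, bedtools and mm9 are named, per the submitters' processing notes, without roles. The sources used here do not state counting settings, strand use or how reads with several positions were handled. Of 21310 identifiers, 19848 (93.1%) matched a symbol. Counts were scaled by edgeR 4.0.16 TMM factors in R 4.3.3 over all genes. CPM, log2 differences with a pseudocount of 1 CPM, and exact Clopper-Pearson (95%) intervals on ratios were computed in Python 3.11.15 with scipy 1.17.1. The interval script was tested on simulated data. A gene counts as tested at 5 CPM or more in either library. DESeq2 1.42.0 size factors were an alternative.

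Named genes were paralogs and parents, stalk genes, the 10 with most WT CPM, the 6 highest and 6 lowest, those past 1.5-fold and fixed relatives; a few of these are not reported here. Members and lists were chosen with earlier results of these data known. Levels per coding length and protein identities were not computed, since no lengths or proteins were used here. Start sequences and chromosomes came from RefSeq tables on GRCm38.p6, matched by symbol.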

Additional observations from a re-analysis of the deposited data

How the results depend on the processing

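The median log2 difference of the ribosomal protein genes stayed below 0 in each of the 10 alternatives, from -0.15 to -0.11. It was -0.11 with library totals, -0.11 with a floor of 20 CPM (39 genes) and -0.11 over the 58 genes above the floor in both libraries, and it was -0.14 with named pseudogenes added to their genes (71 genes). These last choices, the level groups over the floor in both libraries, the removal of Rplp0 and the pair of Rpl37 and Rpl37rt were added after seeing the data. Genes at least 1.2-fold lower numbered 24 of 63 in the main setting, 19 with library totals and 18 with a pseudocount of 5 CPM. There were 12 of 39 with the floor of 20 CPM, as fewer genes were tested. Without paralogs and genes with a named pseudogene there were 9 of 27 (against 21.8% of all genes). Shares of all genes past 1.2-fold or 1.5-fold were not computed with library totals, other pseudocounts, a 20 CPM floor or no floor. Genes below 0 numbered 38 with library totals (60.3%, against 48.1% of all genes), from 43 in the main setting. Centred on the median of all genes tested, they numbered 39 (61.9%, against 50.0%). Genes at least 1.5-fold lower numbered 1 with library totals, 4 with no floor, and 0 with a pseudocount of 5 CPM, a floor of 20 CPM or the floor in both libraries. So the calls of Rps29 and Rpl37 rest on low counts. The share of counts in these genes was 0.410% (WT) and 0.394% (Alkbh1-/-) without the 10 most counted genes, 0.476% and 0.459% with named pseudogenes and 0.353% and 0.334% without Rplp0. With named pseudogenes added to the parent, Rpl39l held 97.2% and 98.6% of its pair, Rpl36al 43.9% and 42.7% and Rpl3l 0.882% and 1.69%. Of 42 named genes, 41 or 42 kept their value within the counting interval in each scaling and pseudocount alternative. No paired analysis was possible because each genotype has 1 mRNA library.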
